A study of Mus musculus with 16 samples.

Results

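The genes described here lie side by side on mouse chromosome 7, between 15 and 20 Mb of the mm10 build. Members were the genes in the count tables whose annotated start falls in that block, without ribosomal protein symbols (Rpl or Rps) and with a mean of at least 0.5 CPM (reads per 1 M counted reads) over all 16 libraries. The tables list 194 genes of the block, 1 was left out for its ribosomal symbol, 108 lay below 0.5 CPM, of which 57 were at 0 in every library, and 85 were members, out of 38924 genes in the tables. Of the members, 78 are annotated as protein coding. All 85 passed the filter on low counts and are among the 18350 genes tested. The block was selected on the number of its genes that differed between RGS4KO and WT libraries, averaged over both treatments, so the members were chosen by their measured genotype difference. Values of that comparison, with the counts of members that pass its test, therefore only describe the block and are not used as support.

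In a study of RGS4 in lasting pain, mRNA was sequenced in tissue punched from the brain and reads were counted per gene; the labels give the region as the ventral posterolateral nuclei of the thalamus, which pass touch and pain signals on to the cortex. The groups were naive libraries labelled RGS4 KO (RGS4KO), naive wild-type (WT) libraries, RGS4KO libraries after CFA and WT libraries after CFA, with 4 libraries in each. CFA is not spelled out in the labels; in pain research it commonly stands for complete Freund's adjuvant, which causes local inflammation. The study's design text describes mice with a floxed Rgs4 gene in which viral (AAV) Cre recombinase lowered RGS4 in this nucleus, while the genotype label reads KO and does not say whether WT mice carried the floxed allele or received a virus. Tissue of 2 mice, as 4 bilateral punches of 12 gauge, went into each library, so a value is a mean over animals, and the spread between libraries is that between pools. The labels give the sex as female and the protocol gives male; no age or strain background is given in the sources used here.

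This stretch of mouse chromosome 7 is gene dense and corresponds to part of the long arm of human chromosome 19. It holds the apolipoprotein gene cluster around Apoe, whose product carries cholesterol between astrocytes and neurons, the nucleotide excision repair genes Ercc1 and Ercc2, and Dmpk, the kinase gene of myotonic dystrophy. It also holds the Psg and Ceacam families of immunoglobulin-like glycoproteins, which are expressed mainly outside the brain.

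The 250 bases before the RefSeq gene start (build GRCm38.p6, the same coordinates as mm10) are printed for 4 members with large differences between the genotype labels, 2 lower and 2 higher in RGS4KO libraries, 5′ to 3′ on the gene's strand. Capitals mark matches, on either strand, to 5 short motifs: the TATA box (TATAAA), the CCAAT box (named by its letters), the GC box (GGGCGG), the E-box (CACGTG) and the cAMP response element (TGACGTCA).
Exoc3l2, chr7:19463037-19463286, plus strand: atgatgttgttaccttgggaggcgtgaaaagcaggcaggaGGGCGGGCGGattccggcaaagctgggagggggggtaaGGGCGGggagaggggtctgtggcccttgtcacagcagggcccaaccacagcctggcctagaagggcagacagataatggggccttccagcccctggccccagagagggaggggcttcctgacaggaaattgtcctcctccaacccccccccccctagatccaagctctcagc
Trappc6a, chr7:19508420-19508669, plus strand: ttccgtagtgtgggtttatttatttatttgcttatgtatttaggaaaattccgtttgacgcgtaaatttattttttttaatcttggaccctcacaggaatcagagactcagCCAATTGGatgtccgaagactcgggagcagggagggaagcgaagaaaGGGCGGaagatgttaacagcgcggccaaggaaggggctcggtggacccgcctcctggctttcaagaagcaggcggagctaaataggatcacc
9330104G04Rik, chr7:16874887-16875136, minus strand: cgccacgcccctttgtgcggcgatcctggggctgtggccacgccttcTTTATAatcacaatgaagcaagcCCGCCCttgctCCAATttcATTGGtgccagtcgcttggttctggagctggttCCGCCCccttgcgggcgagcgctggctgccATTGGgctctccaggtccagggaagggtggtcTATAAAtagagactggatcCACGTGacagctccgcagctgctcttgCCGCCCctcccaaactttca
Pglyrp1, chr7:18884440-18884689, plus strand: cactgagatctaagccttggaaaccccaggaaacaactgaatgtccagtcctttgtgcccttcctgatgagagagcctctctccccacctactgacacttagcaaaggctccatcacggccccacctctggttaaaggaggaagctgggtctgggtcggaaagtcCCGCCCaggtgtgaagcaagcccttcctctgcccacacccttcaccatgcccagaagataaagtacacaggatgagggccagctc

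These 4 windows share no motif layout. The Exoc3l2 window holds 3 matches to the GC box, the first pair overlapping, and none to the other motifs. The 9330104G04Rik window holds matches to every motif except the cAMP response element. The Trappc6a window has 2 overlapping CCAAT matches on opposite strands and 1 GC box match, and the Pglyrp1 window has a single GC box match. The RefSeq starts used for Pglyrp1 and Trappc6a lie inside the GENCODE genes, which begin further upstream, so both printed windows lie within the annotated gene. In windows from 250 bases before to 50 bases after the start, the GC box occurred in 70.5% of 78 windows of 65 members and in 35.7% of all 32851 RefSeq windows. The TATA box occurred in 6.41% of members' windows and 13.6% of all, and the CCAAT box in 35.9% and 37.4%. The E-box occurred in 10.3% of members' windows and 7.15% of all, and the cAMP response element in 5.13% and 1.79%. Members had to reach 0.5 CPM in this tissue, while the set of all RefSeq windows was not limited to expressed genes. The shares are therefore of unlike sets, and nothing is read from their differences. The other 20 members, among them Apoc1 and Gm16251, were not matched. A match is a run of letters, not a binding site.

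Gene totals ranged from 18.1 M to 78.8 M reads per library, and the lowest total of any member over all 16 libraries was 388 reads. Totals were 43.7, 23.3, 18.1 and 29.1 M in RGS4KO naive and 36.6, 43.8, 54.7 and 36.4 M in WT naive libraries. After CFA they were 78.8, 42.9, 24.4 and 38.8 M in RGS4KO and 42.2, 52.3, 53.9 and 43.8 M in WT libraries. The targeted gene did not follow the labels. Rgs4 averaged 81.3 ± 2.74 CPM in RGS4KO naive and 80.8 ± 3.66 CPM in WT naive libraries, and 84.0 ± 5.5 CPM in RGS4KO CFA and 89.3 ± 6.65 CPM in WT CFA libraries (SD, n = 4 each). Every direction below is therefore that of libraries labelled RGS4KO, over libraries labelled WT. Of 8 markers of thalamic relay neurons 7 passed the filter, and Gbx2 was below 0.1 CPM; 1 of them was called higher in RGS4KO naive than in WT naive libraries. Of 5 hypothalamus markers 1 passed the filter and was called lower in CFA libraries, where the summed list spanned 2.47 to 2.99 CPM in RGS4KO and 3.65 to 5.2 CPM in WT libraries, without overlap; the part of these cells in the results was not tested. Summed markers of midbrain monoamine neurons, which lie outside the labelled region, spanned 203.2 to 808.2 CPM in RGS4KO naive and 528.1 to 1193.8 CPM in WT naive libraries, and 538.5 to 802.6 CPM in RGS4KO CFA and 127.5 to 653.6 CPM in WT CFA libraries, with 0 of 4 called between the genotypes; their part in the results was not tested. Within the block, WT naive libraries 2 and 4 lay apart from WT naive libraries 1 and 3, which is described after the members.

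Levels within the block differed widely. Per kilobase of exon, the members' mean level ranged between 0.229 and 586 CPM per kb, with a median of 4.28. Apoe was highest at 585.7 CPM per kb, followed by the calmodulin gene Calm3 at 464.3, while Mill2, a relative of MHC class I genes, was lowest at 0.229.

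Averaged over naive and CFA libraries, 33 of the 85 members (38.8%) were called between the genotypes, 11 higher and 22 lower in RGS4KO libraries; over all tested genes 3.73% were called, 1.74% higher and 1.99% lower. A call is an adjusted p under 0.05 in edgeR's quasi-likelihood test over all genes. Because this contrast chose the block, nothing is read from the difference in these shares. In naive libraries 19 members were called, 5 higher and 14 lower, against 1.45% of all genes (0.698% higher, 0.752% lower). In CFA libraries 24 members were called, 7 higher and 17 lower, against 1.6% of all genes (0.649% higher, 0.954% lower). With scores of astrocyte, oligodendrocyte and relay neuron markers in the model, an alternative added after the data were seen, these counts were 16 in the average, 10 in naive and 7 in CFA libraries. The share of all genes called with the scores is not given here, so the lower counts are not read as a trait of the members. Over the 48 members that overlap no other annotated gene, 19 were called in the average. All 33 members had the same direction in naive and CFA libraries. The median log2 difference over all 85 members was -0.03, against 0 over all genes tested. In punches of mixed tissue, fewer cells of a type and less RNA per cell cannot be told apart.

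**Figure D1:**
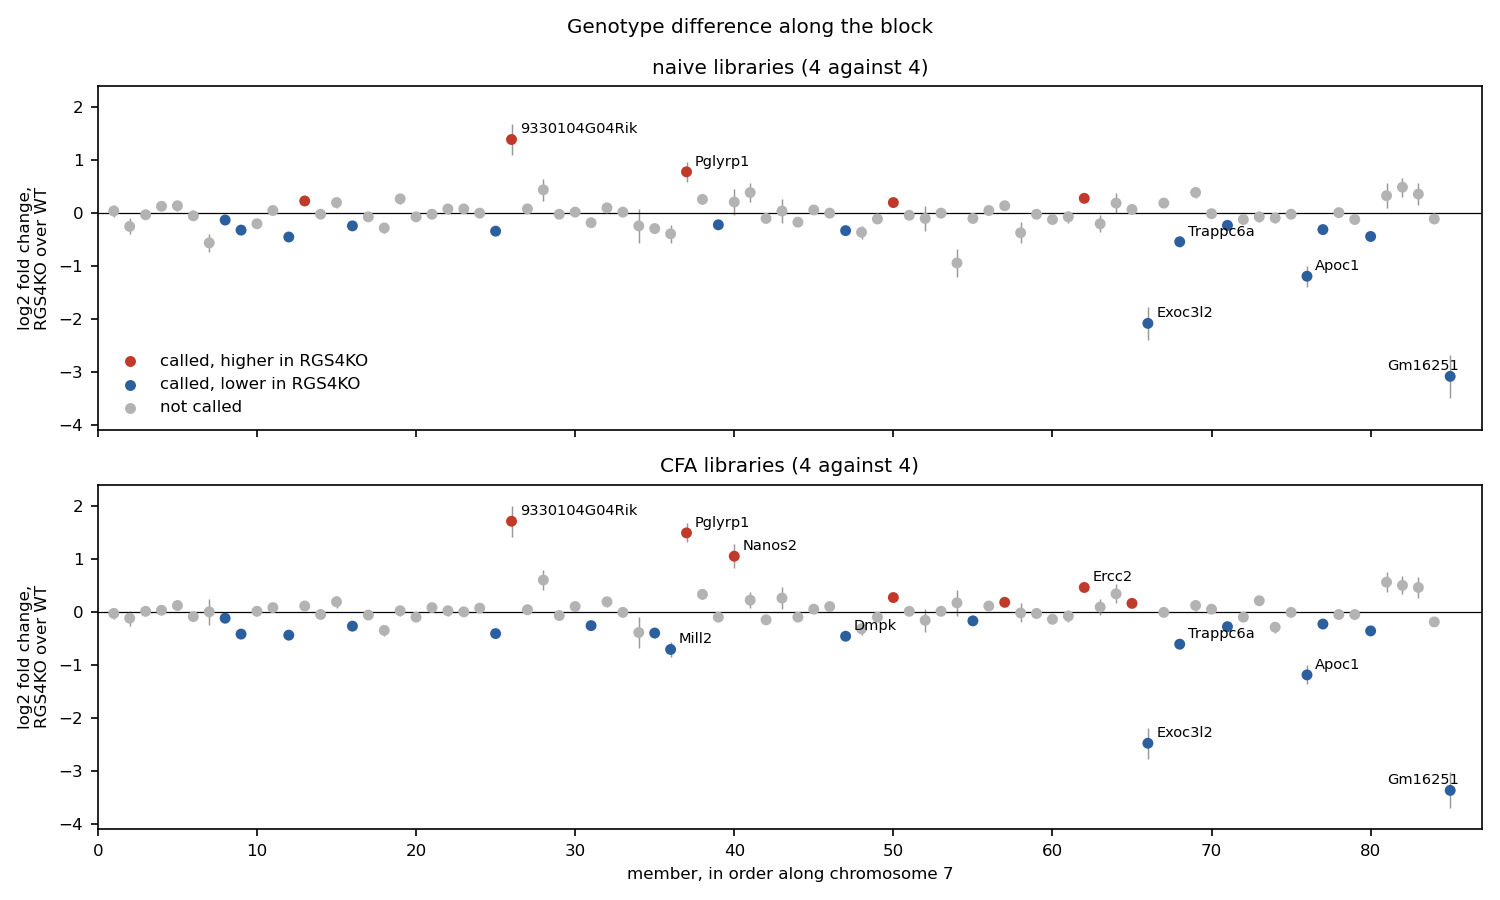
Log2 fold change of RGS4KO over WT for the 85 members in order along chromosome 7, for naive libraries (upper panel) and CFA libraries (lower panel), 4 libraries against 4 in each; bars are 1 standard error. Exoc3l2, Apoc1, Trappc6a and Gm16251 lie below 0 and 9330104G04Rik and Pglyrp1 above 0 in both panels, among neighbours near 0.

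Called members stood next to members that barely differed, and both directions were interleaved. With members not called passed over, 14 of 32 pairs of successive called members had opposite directions, and the longest run in 1 direction held 7. Whether this differs from a random order was not tested. None of 6 members between 15 and 16 Mb was called, against 11 of 26 between 16 and 17 Mb, 1 of 3 between 17 and 18 Mb, 5 of 8 between 18 and 19 Mb and 16 of 42 between 19 and 20 Mb. A gap of 1.77 Mb between Psg16 and Mill2 held no member; the tables list 28 genes there, 18 of them of the Psg or Ceacam families, all below 0.5 CPM. Most differences were small: the median size among called members was 0.34 on the log2 scale, 24 of 33 were below 0.5, and 5 exceeded 1. Among the 52 members not called, the largest was 0.44 and 44 were below 0.2. Summed over members, the block gave 6321.7 ± 48.8 CPM in RGS4KO naive and 6689.8 ± 128.2 CPM in WT naive libraries, and 6339.8 ± 154.4 CPM in RGS4KO CFA and 6612.8 ± 156.1 CPM in WT CFA libraries (SD, n = 4 each).

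Genes of vesicle traffic, membrane and cytoskeleton made up 18 members, of which 6 were called lower and 2 higher. Beside this count and those of the lists below stand 38.8% called over all members and 3.73% over all genes. Whether any list differs from the block was not tested, and nothing is read from these counts about a role. Among the vesicle, membrane and cytoskeleton genes, the largest difference was in Exoc3l2 (chr7:19463331-19496762), a relative of the exocyst subunit that tethers secretory vesicles. Exoc3l2 had 0.735, 0.432, 0.662 and 0.766 CPM in RGS4KO naive libraries, against 3.31, 1.92, 4.28 and 1.63 CPM in WT naive libraries. After CFA, Exoc3l2 had 0.623, 0.582, 0.367 and 0.49 CPM in RGS4KO libraries, against 2.68, 2.71, 3.07 and 3.7 CPM in WT libraries. Every RGS4KO library lay below every WT library, and the WT naive libraries differed among themselves more than the WT CFA libraries. The log2 difference was -2.08 (SE 0.31) in naive and -2.48 (SE 0.29) in CFA libraries, a mean fold of 0.206. Exoc3l2 overlaps the predicted gene Gm45167 on the same strand, so its reads may be shared.

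Trappc6a (chr7:19508395-19516145), a subunit of the TRAPP complex that tethers vesicles on the way to the Golgi, starts shortly after Exoc3l2 ends. It had 3.93, 3.59, 3.59 and 3.45 CPM in RGS4KO naive libraries, against 5.9, 4.55, 5.88 and 4.95 CPM in WT naive libraries. In CFA libraries the values were 3.42, 3.17, 4.04 and 3.59 CPM in RGS4KO libraries, against 5.72, 4.93, 5.1 and 5.71 CPM in WT libraries. The groups did not overlap in either treatment, and the average log2 difference was -0.57 (SE 0.07). Bloc1s3, the member between Exoc3l2 and Trappc6a, was not called, at 0.09 (SE 0.05). On the other side of Exoc3l2 lies Mark4, a kinase that phosphorylates the microtubule protein tau. Mark4 differed in the other direction, by 0.11 (SE 0.02), and in CFA libraries its levels were 49.4 to 53.6 CPM in RGS4KO and 44.2 to 46.8 CPM in WT libraries.

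Among the other members of this group, Bcam, a laminin receptor of vessel walls and epithelia, averaged 19.9 ± 1.3 CPM in RGS4KO naive and 26.9 ± 1.27 CPM in WT naive libraries, and 20.7 ± 1.16 CPM in RGS4KO CFA and 26.7 ± 3.21 CPM in WT CFA libraries (SD, n = 4 each). Napa, which encodes the SNARE-recycling protein alpha-SNAP, differed by -0.12 (SE 0.02) and did not overlap between genotypes in either treatment, with 156.3 to 165.8 CPM over RGS4KO libraries and 170.7 to 180.9 CPM over WT libraries. Rtn2, a reticulon that shapes the endoplasmic reticulum, was higher by 0.16 (SE 0.03) in the same non-overlapping way, with 62.9 to 69.9 CPM over RGS4KO and 53.5 to 62.0 CPM over WT libraries. Opa3, a mitochondrial protein gene of inherited optic atrophy, was called lower, at a log2 difference of -0.14 (SE 0.03). Summed markers of endothelium and mural cells, in which Exoc3l2 and Bcam are also expressed, spanned 185.4 to 201.4 CPM in RGS4KO naive and 164.2 to 193 CPM in WT naive libraries, and 177.5 to 218.7 CPM in RGS4KO CFA and 178.2 to 210.4 CPM in WT CFA libraries, with 0 of 5 called; the part of these cells in the differences was not tested. With the 3 marker scores in the model, the average difference was -1.93 for Exoc3l2 and -0.4 for Bcam.

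**Figure D2:**
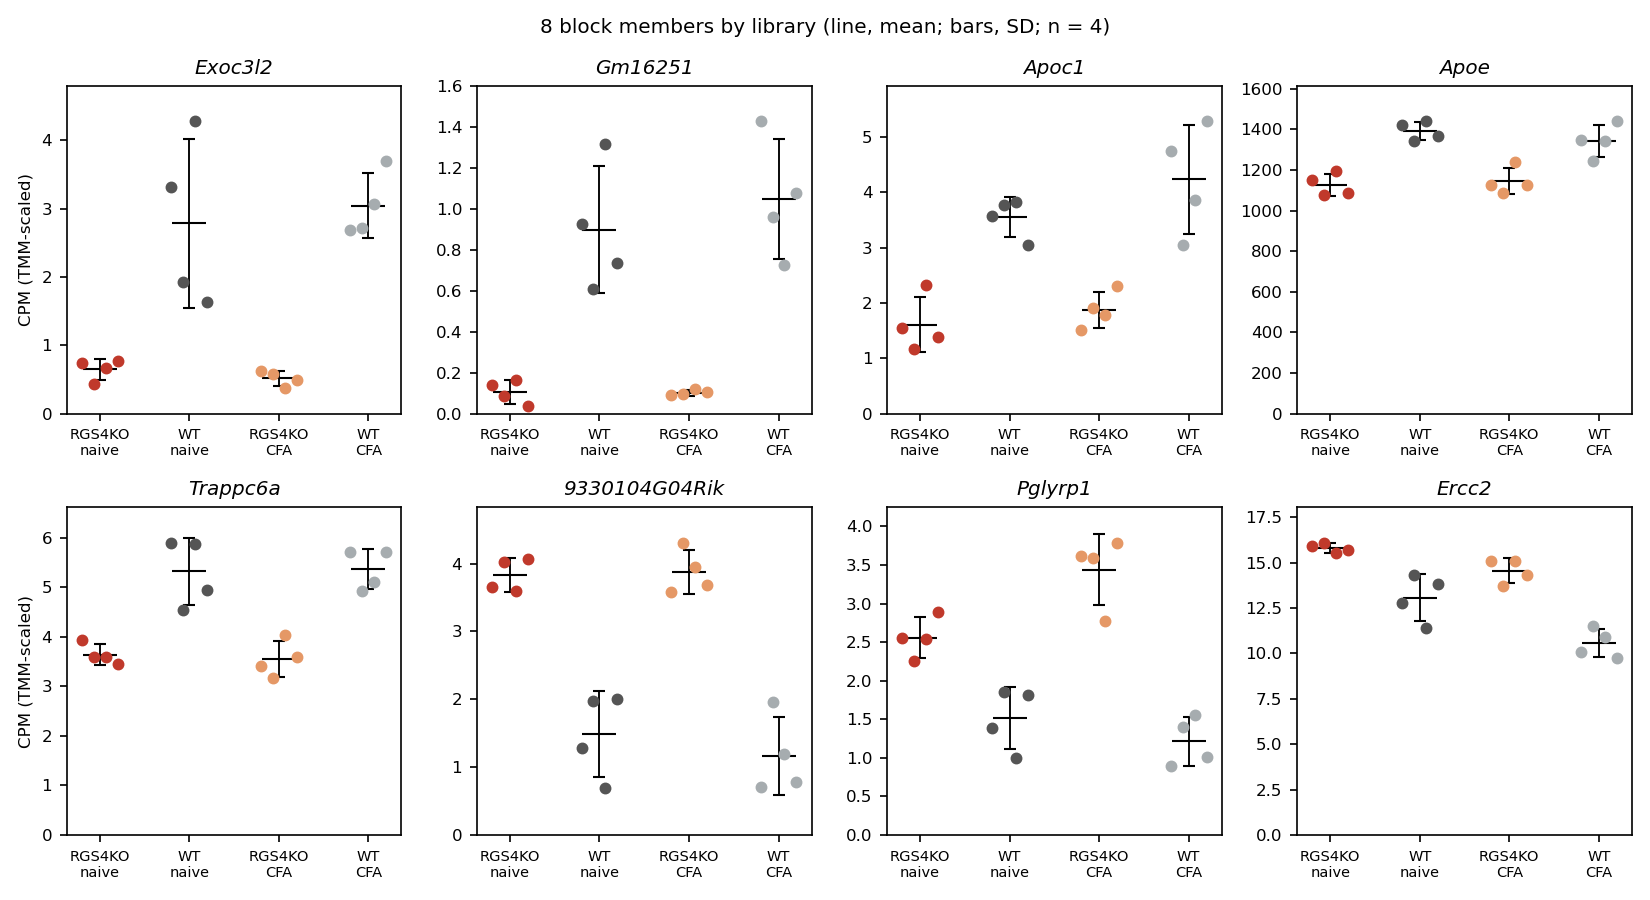
CPM of 8 members in each library, with RGS4KO and WT libraries side by side for naive and CFA (points, libraries; horizontal line, mean; bars, SD; n = 4 per group). For Exoc3l2, Gm16251, Apoc1, Apoe and Trappc6a each RGS4KO point lies below each WT point of the same treatment, and for 9330104G04Rik, Pglyrp1 and Ercc2 above.

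Both apolipoproteins among the members were lower in RGS4KO libraries. Apoe (chr7:19696109-19699188) is made chiefly by astrocytes and by reactive microglia, and Apoc1, its neighbour on the same strand, encodes a small apolipoprotein that inhibits lipoprotein uptake. Apoe had 1148.9, 1078.7, 1193.6 and 1087.2 CPM in RGS4KO naive libraries, against 1421.2, 1343.2, 1441.3 and 1366.8 CPM in WT naive libraries. The CFA libraries gave 1127.6, 1088.8, 1241.4 and 1125.3 CPM in RGS4KO libraries, against 1346.4, 1243.1, 1340.8 and 1441.1 CPM in WT libraries. The groups did not overlap, though in CFA the highest RGS4KO library nearly reached the lowest WT library, and the log2 difference was -0.31 (SE 0.05) in naive and -0.23 (SE 0.05) in CFA libraries.

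Apoc1 (chr7:19689481-19692660) had 1.54, 1.17, 2.32 and 1.39 CPM in RGS4KO naive libraries, against 3.58, 3.78, 3.83 and 3.04 CPM in WT naive libraries. In the CFA libraries Apoc1 had 1.51, 1.91, 1.79 and 2.3 CPM in RGS4KO libraries, against 4.75, 3.05, 3.87 and 5.29 CPM in WT libraries. The difference was -1.19 in each treatment (SE 0.2 in naive, 0.18 in CFA), with no overlap. Gipr, the receptor for the gut hormone GIP and the third member of this list, was not called at -0.13 (SE 0.16).

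Markers of the cells that make Apoe are given here, and their part in the Apoe difference was not tested. Summed astrocyte markers spanned 2769.8 to 3103.9 CPM in RGS4KO naive and 2809.1 to 2951.5 CPM in WT naive libraries, which overlap. In CFA libraries they spanned 2628.6 to 2837.9 CPM in RGS4KO and 2936.7 to 3038.8 CPM in WT, which do not overlap. None of the 6 astrocyte markers was called. Summed microglial markers spanned 149.2 to 172.6 CPM in RGS4KO naive and 147.9 to 157.6 CPM in WT naive libraries, and 154.1 to 158.3 CPM in RGS4KO CFA and 142.1 to 155.7 CPM in WT CFA libraries, again with 0 of 6 called. With the 3 marker scores in the model the Apoe difference was -0.23 and that of Apoc1 -1.11.

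The only member of the immune list called was Pglyrp1 (chr7:18871331-18890459), a secreted protein of neutrophils and other phagocytes that binds bacterial peptidoglycan. Pglyrp1 had 2.55, 2.25, 2.54 and 2.89 CPM in RGS4KO naive libraries, against 1.39, 1.86, 0.998 and 1.82 CPM in WT naive libraries. Among CFA libraries its levels were 3.61, 3.59, 2.77 and 3.79 CPM in RGS4KO libraries, against 0.894, 1.4, 1.56 and 1.01 CPM in WT libraries. It was higher in every RGS4KO library, by 0.78 (SE 0.19) in naive and 1.49 (SE 0.18) in CFA libraries. The other 5 members of the list were not called: Bcl3, a regulator of NF-kB, differed by 0.44 (SE 0.15), Ceacam16, a protein of the inner ear, by 0.41 (SE 0.14), and Pvr, a nectin-like adhesion receptor, by -0.15 (SE 0.06), and Relb and Nectin2 were the remaining members.

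The noncoding RNA 9330104G04Rik (chr7:16871347-16874886, minus strand) was the member with the largest excess in RGS4KO libraries. It had 3.65, 4.02, 3.59 and 4.07 CPM in RGS4KO naive libraries, against 1.28, 1.97, 0.69 and 2.01 CPM in WT naive libraries. The corresponding CFA values were 3.58, 4.31, 3.95 and 3.69 CPM in RGS4KO libraries, against 0.706, 1.96, 1.19 and 0.782 CPM in WT libraries. RGS4KO libraries lay close together and WT libraries were spread over a wider range, without overlap, and the log2 difference averaged 1.55 (SE 0.21). It lies just downstream of the kinase gene Prkd2 on the opposite strand, and Prkd2, protein kinase D2, differed the other way by -0.38 (SE 0.06), with 5.23 to 6.51 CPM over RGS4KO libraries and 7.11 to 8.4 CPM over WT libraries.

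At the other end of the block, the antisense RNA Gm16251 (chr7:19920729-19927607) overlaps the first part of Pvr on the other strand, and the library kit does not mark strand, so its reads are uncertain. Gm16251 had 6, 2, 3 and 1 reads in RGS4KO naive libraries, against 34, 27, 73 and 27 reads in WT naive libraries. After CFA it had 7, 4, 3 and 4 reads in RGS4KO libraries, against 61, 50, 39 and 47 reads in WT libraries. On the CPM scale it averaged 0.106 ± 0.0577 in RGS4KO naive and 0.9 ± 0.312 in WT naive libraries, and 0.102 ± 0.0148 in RGS4KO CFA and 1.05 ± 0.296 in WT CFA libraries (SD, n = 4 each). Its log2 difference of -3.23 (SE 0.26) was the largest of all members and rests on single-digit counts in RGS4KO libraries. Gm16251 met the limit of 0.5 CPM only through the WT libraries, the groups in which it is high, while Pvr itself differed by -0.15.

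In the list of DNA repair, RNA polymerase and splicing genes, 4 of 10 members were called lower and 1 higher. The higher one was Ercc2 (chr7:19382010-19395694), the XPD helicase of the repair and transcription factor TFIIH, which overlaps Klc3 and Gm26852 on the other strand. Ercc2 had 15.9, 16.1, 15.5 and 15.7 CPM in RGS4KO naive libraries, against 12.8, 14.3, 11.4 and 13.8 CPM in WT naive libraries. After CFA it had 15.1, 13.7, 15.1 and 14.3 CPM in RGS4KO libraries, against 10.1, 11.5, 10.9 and 9.76 CPM in WT libraries. The groups did not overlap within a treatment. Its partner in repair, Ercc1, was not called.

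The lower members of that list were Gemin7 by -0.26 (SE 0.04) and Clasrp by -0.11 (SE 0.03), genes of spliceosome assembly and splicing regulation, with Kptn and Sae1. Neither Kptn nor Sae1 does what the name of the list says: Kptn encodes kaptin, part of a complex that restrains mTORC1, and Sae1 a subunit of the enzyme that activates SUMO. Kptn had 12.4 to 14.3 CPM over RGS4KO libraries and 16.4 to 19.5 CPM over WT libraries, and Sae1 had 77.0 to 83.9 CPM over RGS4KO libraries and 89.0 to 102.6 CPM over WT libraries. Both were without overlap, at -0.37 (SE 0.04) and -0.26 (SE 0.03).

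On the list headed calcium, kinase and receptor signalling, which has 14 members, 4 were called lower and 2 higher, but 3 of these 6 (Dhx34, Pnmal1 and Qpctl) have other roles. Prkd2, which is given above, Dmpk and Gng8 are the called kinase and G protein genes. Dmpk differed by -0.39 (SE 0.05), with 21.9 to 25.7 CPM over RGS4KO and 25.5 to 35.8 CPM over WT libraries, where 1 WT naive library fell inside the RGS4KO range. Dhx34, an RNA helicase of nonsense-mediated decay, had 11.9 to 13.1 CPM over RGS4KO and 15.3 to 18.5 CPM over WT libraries, a difference of -0.45 (SE 0.05). Pnmal1, of a family derived from retrotransposon Gag genes, differed by -0.22 (SE 0.03). The higher members were Gng8, a G protein gamma subunit, by 0.52 (SE 0.14), and Qpctl, a Golgi enzyme that cyclises N-terminal glutamine, by 0.23 (SE 0.03). The Gng8 call was lost in 12 of 16 fits that left out 1 library, with marker scores in the model and when libraries were thinned to the shallowest. Calm3, at 1116.3 ± 57.8 CPM in RGS4KO naive and 1134.6 ± 32.0 CPM in WT naive libraries (SD, n = 4 each), was not called.

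Of 14 transcription factors and RNA-binding regulators, 1 was called higher and 2 lower. Nova2, a splicing regulator of neurons, differed by -0.16 (SE 0.03), and Six5, the homeobox gene next to Dmpk, by -0.34 (SE 0.08). Nanos2, an RNA-binding protein of male germ cells, had 0.804, 0.735, 0.993 and 0.453 CPM in RGS4KO naive libraries, against 0.492, 0.86, 0.544 and 0.625 CPM in WT naive libraries, which overlap. After CFA, Nanos2 had 0.902, 1.26, 1.02 and 0.723 CPM in RGS4KO libraries, against 0.541, 0.461, 0.372 and 0.506 CPM in WT libraries, which do not. Nova2 and Nanos2 each overlap a predicted antisense gene. All 3 calls of this list were lost with marker scores in the model and when libraries were thinned to the shallowest, and that of Nanos2 also in 12 of 16 fits that left out 1 library. The early-response gene Fosb, the bHLH-PAS factor Npas1 and the hypoxia factor Hif3a were not called.

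Ccdc61, a basal body protein and the only member on the list for sperm and cilia, was higher by 0.29 (SE 0.06). Outside the lists, 3 of 19 members were called higher and 4 lower, which include 9330104G04Rik and Gm16251. Inafm1 was higher by 0.17 (SE 0.03), and Gm19345, which overlaps Ceacam16 on the other strand, by 0.49 (SE 0.13), a call lost in 9 of 16 fits that left out 1 library and with marker scores in the model. Mill2 was lower, with 0.671 to 0.993 CPM over RGS4KO and 0.957 to 1.55 CPM over WT libraries, as were Psg16, at 4.12 to 4.97 CPM over RGS4KO and 4.87 to 6.12 CPM over WT libraries, and Tmem160, at 11.4 to 14.8 CPM over RGS4KO and 13.1 to 18.7 CPM over WT libraries.

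**Figure D3:**
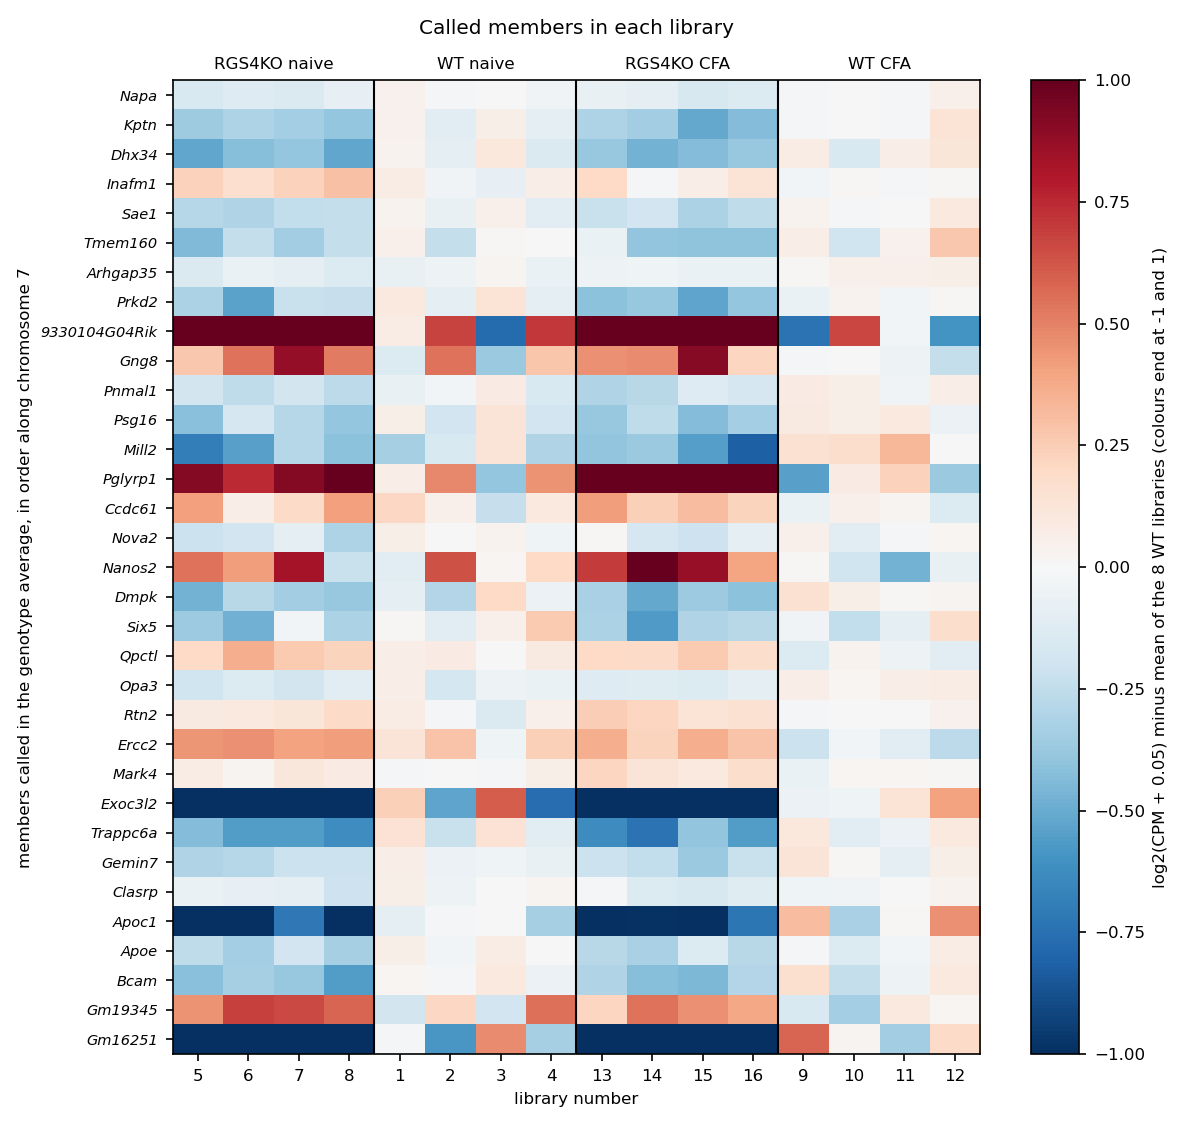
Log2(CPM + 0.05) of the 33 called members in each library, minus the mean of the 8 WT libraries; rows follow chromosome 7, and columns run from RGS4KO naive and WT naive to RGS4KO CFA and WT CFA. The rows of Exoc3l2, Apoc1 and Gm16251 are blue and those of 9330104G04Rik and Pglyrp1 red in all 8 RGS4KO columns, while WT naive libraries 2 and 4 carry paler shades of the RGS4KO colours in several rows.

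Libraries of both genotypes stood apart without overlap in many members. In naive libraries the groups did not overlap for 28 members, 10 higher and 18 lower, or 32.9%, against 7.23% of all tested genes. In CFA libraries this held for 33 members, 13 higher and 20 lower, or 38.8%, against 8.03%. All 8 RGS4KO libraries lay outside the range of all 8 WT libraries for 16 members, 4 higher and 12 lower, or 18.8%, against 0.926% of all genes. The 4 higher were 9330104G04Rik, Pglyrp1, Qpctl and Rtn2. The block was chosen on its genotype differences, so nothing is read from these shares lying above those of all genes.

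WT naive libraries differed among themselves across the block. To place each library, its log2 level of each of 19 called members with a difference above 0.3 was set on a scale where 0 is the WT mean and 1 the RGS4KO mean of the same treatment, a measure chosen after the data were seen. The median over those members was 0.35 in WT naive library 2 and 0.29 in library 4, against -0.15 in library 1 and -0.38 in library 3. Library 2 lay on the RGS4KO side of the WT mean in 17 of 19 members and library 4 in 16, against 3 for library 1 and 1 for library 3. WT CFA libraries were closer together, between -0.15 and 0.12, and RGS4KO libraries between 0.92 and 1.09.

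Over 245 called genes on other chromosomes, the same WT naive libraries had medians of 0.09, -0.01, -0.09 and 0.05 in order of library number. Over 17 called genes elsewhere on chromosome 7 the medians were -0.06, 0.26, -0.43 and 0.18. The order of the WT naive libraries along chromosome 7 was thus alike inside and outside the block, while on other chromosomes the 4 medians lay between -0.09 and 0.09. The means that set the scale include the libraries placed on it, and what the libraries share was not tested. The count of called members in naive libraries was 10 without RGS4KO library 5 or 6, 15 without library 7 and 12 without library 8. It was 10 without WT library 1 or 3, 15 without WT library 2 and 16 without WT library 4, against 19 with all.

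**Figure D4:**
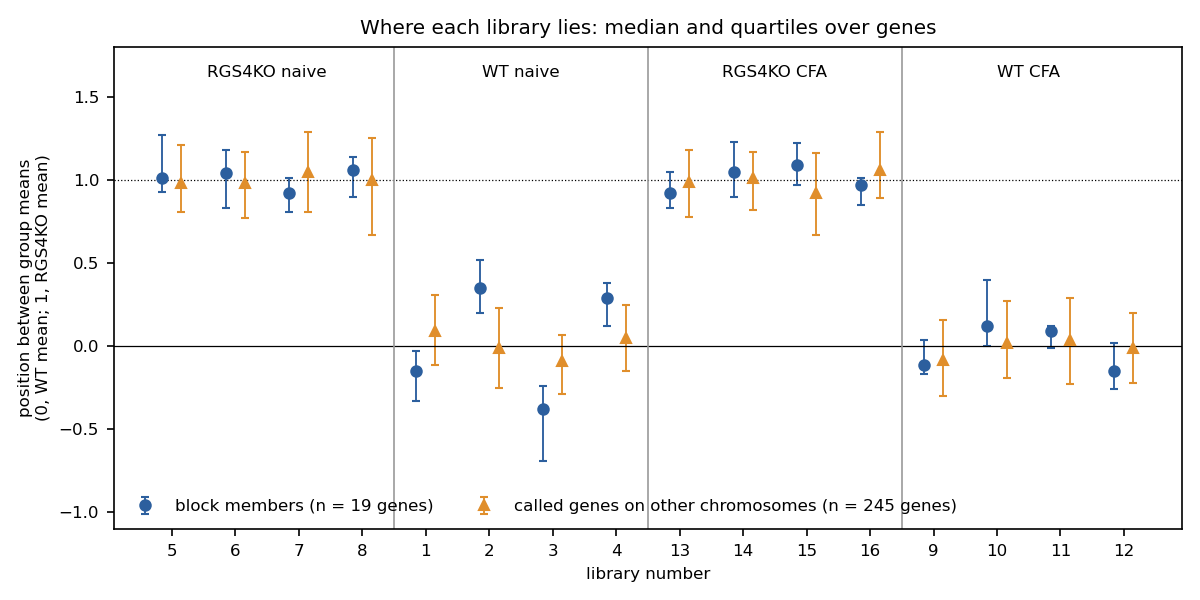
Position of each library between the WT mean (0) and the RGS4KO mean (1) of its treatment, as the median and quartiles over 19 block members (circles) and 245 called genes on other chromosomes (triangles). Among WT naive libraries the circles spread between -0.38 and 0.35, while the triangles stay between -0.09 and 0.09.

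The share of called genes varied along the rest of chromosome 7. By the same rule, 1 of 22 genes (4.55%) was called in the genotype average between 10 and 15 Mb, and 5 of 21 (23.8%) between 20 and 25 Mb. In windows of 5 Mb over tested genes, 37 of 99 were called inside the block, 4 of 128 (3.12%) between 25 and 30 Mb and 9 of 55 (16.4%) in the first 5 Mb of the chromosome. The block was chosen by its number of genes that differed in this comparison, so nothing is read from its excess over other windows. At the lower edge, the nearest tested genes outside were the pseudogenes Nlrp5-ps, at -1.01 (SE 0.22), and Phf20-ps, at -0.64 (SE 0.29), and the nearest inside were Mrip-ps at 0 (SE 0.07) and Crxos at -0.19 (SE 0.1). At the upper edge, the next tested genes lay at 24.08 and 24.11 Mb, where the zinc-finger genes Zfp180 and Zfp112 differed by 0.12 (SE 0.04) and -0.20 (SE 0.04).

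Just inside the upper edge but below the limit of 0.5 CPM stood Igsf23, an immunoglobulin-like membrane protein gene next to Gm16251. Igsf23 had 0 reads in all 4 RGS4KO naive libraries, against 13, 16, 30 and 8 reads in WT naive libraries. After CFA it had 2, 0, 0 and 0 reads in RGS4KO libraries, against 30, 18, 31 and 26 reads in WT libraries. Its neighbour Rpl7a-ps8, a ribosomal protein pseudogene, differed by 0.07 (SE 0.17). Nearest below the 0.5 CPM limit were C5ar1, the receptor for the complement fragment C5a, at 0.49 CPM and a difference of 0.67 (SE 0.15), and 1700058P15Rik at 0.468 CPM and 0.39 (SE 0.17). Nearest above it were Gm16251 at 0.54 CPM and Bcl3 at 0.597 CPM.

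**Figure D5:**
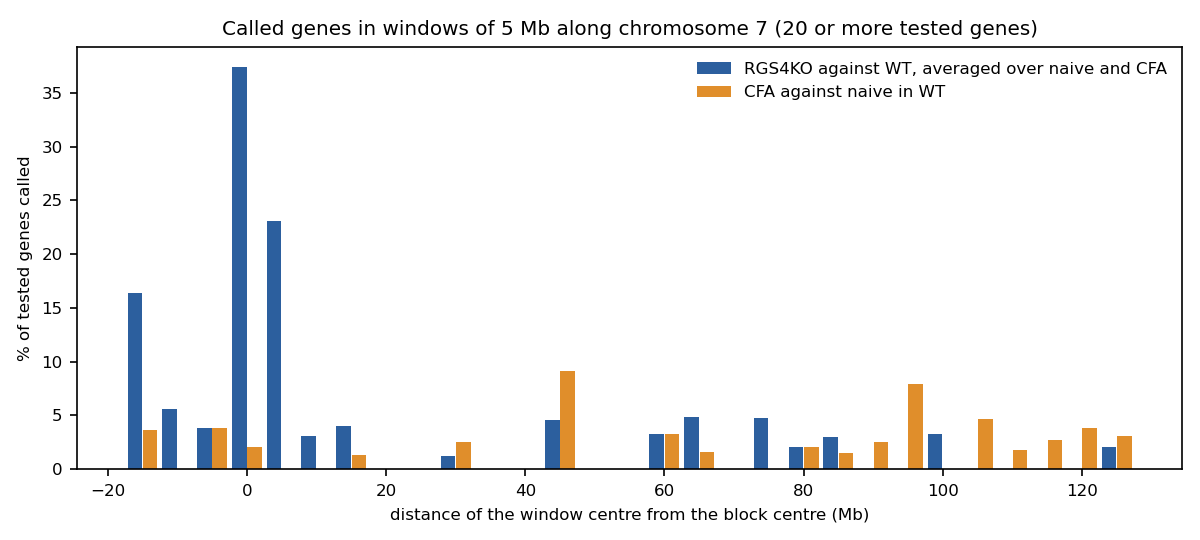
Percentage of tested genes called in windows of 5 Mb along chromosome 7 with 20 or more tested genes, by distance of the window centre from the block centre, for RGS4KO against WT averaged over treatments (blue) and CFA against naive in WT (orange). In the block, 37.4% of tested genes were called for genotype and 2.02% for CFA in WT, and the next window above it had 23.1% for genotype. The genotype comparison chose the block and CFA in WT did not, so the height of its blue bar beside the other bars is a description only.

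The interaction of genotype and CFA and the CFA comparisons within a genotype did not choose the block, so members can be tested in them. No member passed the test of the interaction, that is, of the genotype difference after CFA minus that in naive libraries, against 0.0654% of all genes called. Of the 85 members, 6 had an unadjusted p under 0.05, the smallest adjusted p was 0.328 by edgeR's quasi-likelihood test, and DESeq2 called 0. The median interaction was 0.01, against 0 over all genes. Among the 33 members called for genotype, 28 had an interaction smaller than 0.3 on the log2 scale. That limit is close to the median size of their genotype differences, 0.34, so it does not show that these were equal in naive and CFA libraries.

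The members with the 4 largest interactions, chosen here after their values were seen, were Gpr4, Nanos2, Pglyrp1 and Zfp541. Gpr4, a proton-sensing receptor of blood vessels, had 3.17, 5.1, 5.74 and 3.48 CPM in RGS4KO naive libraries, against 8.45, 10.3, 7.28 and 6.41 CPM in WT naive libraries. After CFA it had 6.79, 5.22, 5.62 and 7.72 CPM in RGS4KO libraries, against 6.63, 3.15, 6.2 and 6.79 CPM in WT libraries. The naive groups did not overlap and the CFA groups did, and the interaction was 1.11 (SE 0.36) at an adjusted p of 0.328 in edgeR's test. For Nanos2 it was 0.84 (SE 0.34, adjusted p = 0.418 in edgeR), for Pglyrp1 0.72 (SE 0.26, adjusted p = 0.37) and for Zfp541 0.56 (SE 0.22, adjusted p = 0.409). None of the 4 passed the threshold, which does not show that their genotype differences were equal in the 2 treatments.

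CFA against naive in WT libraries called 2 of 85 members (2.35%), both lower, against 2.23% of all genes and 0.807% called lower, so the share lay near the background; the median difference was 0.01, against 0 over all genes. The 2 comparisons within a genotype and that between genotypes share libraries. Ap2s1 (chr7:16738410-16749294), the small subunit of the AP-2 adaptor for clathrin-coated vesicles, had 92.3, 91.5, 86.8 and 89.5 CPM in WT CFA libraries, against 102.8, 98.0, 97.1 and 97.1 CPM in WT naive libraries. It fell by 0.13 on the log2 scale (SE 0.03, adjusted p = 0.0356 in edgeR), lower in 4 of 4 WT CFA libraries than in any WT naive library. The call was lost without any 1 of WT naive libraries 1, 2, 3 and 4 or WT CFA libraries 10, 11 and 12, with adjusted p between 0.0526 and 0.12 in edgeR, and with 3 marker scores in the model (0.0511).

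Ercc2 had 10.1, 11.5, 10.9 and 9.76 CPM in WT CFA libraries, against 12.8, 14.3, 11.4 and 13.8 CPM in WT naive libraries. The groups touched, with the highest CFA library just above the lowest naive one, and Ercc2 fell by 0.3 on the log2 scale (SE 0.07, adjusted p = 0.0211 in edgeR). That call was lost without WT naive library 2 (adjusted p = 0.0887 in edgeR) or 4 (0.0614) or WT CFA library 9 (0.0552) or 12 (0.0748), and when libraries were thinned to the shallowest (0.15). WT naive libraries 2 and 4 stood on the RGS4KO side of the WT naive mean for the block, on a scale that includes Ercc2 itself. WT CFA libraries 9 and 12 had medians of -0.11 and -0.15 on that scale. What part these positions had in the call was not tested. In RGS4KO libraries, Ercc2 differed by -0.12 (SE 0.07) and Ap2s1 by -0.03 (SE 0.03) between CFA and naive. The interaction was 0.18 (SE 0.1, adjusted p = 0.542 in edgeR) for Ercc2 and 0.1 (SE 0.05, adjusted p = 0.485) for Ap2s1.

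CFA against naive in RGS4KO libraries called no member, against 0.185% of all genes. Of the 85 members, 5 had an unadjusted p under 0.05, and DESeq2 called 0. The median difference was 0 over members and over all genes, and the lowest adjusted p was that of Zfp541, a zinc-finger gene of germ cells, at 0.251 in edgeR's test. Zfp541 had 1.31, 1.49, 1.35 and 1.08 CPM in RGS4KO CFA libraries, against 0.85, 0.951, 1.05 and 0.696 CPM in RGS4KO naive libraries, a difference of 0.59 (SE 0.17) with no overlap. Exoc3l2 differed between CFA and naive by -0.29 (SE 0.38) in RGS4KO libraries and by 0.1 (SE 0.23) in WT libraries.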

How the data were processed

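The authors deposited raw counts, whole numbers of reads per Ensembl gene, for 16 libraries. TopHat, DESeq2 and the build mm10 are named in the submitters' processing notes; not given in the sources used here are the annotation release and the strand option of the counter. Per the labels' protocols the kit was TruSeq RNA version 2, which does not mark strand. Reads listed without a gene, as ambiguous or as not unique (38 to 39.9% of all listed) were left out. GENCODE M21 positions matched 37607 of 38924 IDs. Of 85 members, 37 overlap another annotated gene, and their reads may be shared. Total counts per library, 18.1 M to 78.8 M, set the precision.

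Counts were tested with edgeR 4.0.16 (R 4.3.3): filterByExpr at a minimum count of 10 left 18350 genes, libraries were scaled by TMM, and the quasi-likelihood fit (robust) took all 16 libraries, with a mean for each of 4 groups (common biological coefficient of variation 6.1%). P-values are two-sided, adjusted by Benjamini-Hochberg over all genes, and called under 0.05. Levels are CPM on TMM-scaled sizes, given as mean ± SD over libraries; SE is the log2 fold change divided by the root of the F statistic. The steps were tested on simulated data, whose planted changes were larger than most differences called in the block. Alternatives were DESeq2 1.42.0, RLE factors, no filter, a 2-group fit, thinning to 18.1 M counts, members without overlaps, another CPM minimum, leaving out each library, and, chosen after the data were seen, marker scores in the model.

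Members, role lists and the rule for named genes were chosen with earlier results of these data known. The rule takes the 10 largest rises and falls among called members of at least 1 CPM, members called for CFA or the interaction, Exoc3l2, Pglyrp1, Apoe, the genes at the edges and at the CPM limit, and up to 4 members per list; Gpr4, Zfp541 and a few others were named after their values were seen. Promoter windows are from RefSeq, build GRCm38.p6.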

Additional observations from a re-analysis of the deposited data

Results flagged for a closer look

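In 144 sets of 4 libraries (36 named members in 4 groups), 6 held a library whose gap to the nearest of the others took up most of the group's range; chance gives about 1 in 20, so 6 is no more than that rate. Kptn had 19.5 CPM in WT CFA library 12, against 17.5, 17.6 and 17.7 CPM in the others. Ap2s1 had 102.8 CPM in WT naive library 1, against 97.1, 97.1 and 98.0 CPM, and 99.6 CPM in RGS4KO CFA library 16, against 93.2, 93.2 and 94.1 CPM. Six5 had 3.14 CPM in RGS4KO CFA library 14, against 3.74, 3.79 and 3.85 CPM. Mark4 had 44.2 CPM in WT CFA library 9, against 46.7, 46.8 and 46.8 CPM. Bcl3 had 0.363 CPM in WT naive library 3, against 0.543, 0.543 and 0.547 CPM.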

How the results depend on the processing

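No paired analysis was possible because no library number is shared between groups. No called difference changed direction in any alternative run; of those not called, the genotype average ran from -0.02 to 0.07 for Mrip-ps, -0.24 to 0.08 for Gipr and -0.03 to 0.04 for Ap2s1. With 85 members, 33 were called in the genotype average, 19 in naive, 24 in CFA and 2 for CFA in WT. Over the 48 members that overlap no other gene, the counts were 19, 11, 14 and 1. With 3 marker scores in the model they were 16, 10 and 7 for the genotype comparisons, without the share of all genes in that model to set beside them. In naive, a fit of only those 2 groups called 12 and libraries thinned to the shallowest called 11, and DESeq2 called 4 for CFA in WT. The cause was not tested, beyond fewer members or samples entering a fit. Leaving out 1 library gave 29 to 34 for the average, 10 to 19 in naive, 19 to 24 in CFA, 0 to 3 for CFA in WT, and 0 to 0 for the interaction and CFA in RGS4KO. The naive count was 10 without RGS4KO library 5 or 6 or WT library 1 or 3, and 12 without RGS4KO library 8. The count for CFA in WT was 0 without WT CFA library 12 or WT naive library 2 or 4, and 1 without WT CFA library 9, 10 or 11 or WT naive library 3. Of single-member values, 736 kept their side of the threshold, 63 lost the call and 1 gained it (Irf2bp1). Gng8 and Nanos2 each lost the call of the genotype average in 12 leave-one-out fits and Gm19345 in 9. Nova2, Six5 and Mark4 lost it when thinned and with marker scores, and 9330104G04Rik, Ccdc61, Dmpk, Inafm1, Mill2 and Prkd2 with marker scores alone. Depth limits Gm16251, Igsf23 and other members near 0.5 CPM.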
